A study of Mus musculus with 2 samples.

Results

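The genes described here encode SR proteins, hnRNPs and a few of their partners, the RNA-binding proteins that decide which exons and introns of other transcripts are kept. They are 39 genes taken by name among the annotated genes of both libraries: 12 SR proteins including Tra2a and Tra2b, the SR-related gene Rsrp1, 20 hnRNPs, the kinases Clk1 and Clk4, the U1 snRNP-associated Luc7l2 and Luc7l3, and the DEAD-box helicases Ddx5 and Ddx17. All 39 had at least 1 read in each library, among 14704 annotated genes with a read. The data are long-read RNA sequencing of the gastrocnemius, a calf muscle, from male B6CASTF1/J mice (the first-generation offspring of a C57BL/6 and a CAST parent) at 14 days of age. There is 1 group of 2 biological replicates, with 2 µg of RNA as input for each, and no treatment or second condition. Both libraries carry the same donor identifier and biosample names that speak of several males. Whether animals were pooled is not stated, so every SD here measures the spread between these libraries, which may in part be technical. The p-values compare the 2 libraries with reads taken as independent. They cover counting error only, and no spread between replicates enters them. Reads of this F1 hybrid were assigned on mm10, the C57BL/6 genome.

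SR proteins carry domains rich in arginine and serine, mostly bind exons and help the splicing machinery to recognise them, and are switched by kinases of the Clk family. hnRNPs often act in the opposite sense, by covering splice sites. Many of these genes are known to control themselves through a poison exon, an exon whose inclusion brings a stop codon early in the reading frame, or through an intron that is left in the RNA. Such RNAs are often destroyed by nonsense-mediated decay or held in the nucleus. Below, a read is called non-productive when its transcript model keeps an intron of an annotated coding transcript or holds a poison exon. The intron must lie between coding exons, with at least 10 bases of exon on each side. A poison exon is an internal exon that overlaps no exon of a coding transcript and lies in such an intron. An internal exon of an annotated nonsense-mediated decay transcript also counts, wherever it lies, unless a coding transcript has exactly that exon. This rule does not require a stop codon inside the exon. The share is taken over reads of the spliced classes, meaning annotated, partial and unannotated spliced models, without the class called Genomic.

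Without spike-in RNAs, the depth was 1094607 reads in replicate 1 and 626289 in replicate 2. A level of 3 reads, the most that a count of 0 allows, equals 2.74 and 4.79 CPM (a gene's reads per 1000000 of the library). The models assigned to reads averaged 2211 bases in replicate 1 and 1768 bases in replicate 2. The 6 skeletal muscle markers examined, among them Acta1 and Ckm, summed to 189797 and 190624 CPM. Of the markers of other cells, the 4 fibroblast genes summed to 6908 and 2716 CPM, the 3 endothelial genes to 259 and 136 CPM, the 3 Schwann cell genes to 299 and 532 CPM, the 3 erythroid genes to 621 and 1138 CPM, the 3 adipocyte genes to 114 and 219 CPM, and the 3 immune genes to 33.8 and 20.8 CPM, with Ptprc at 0 reads in both. In a whole-muscle sample, fewer cells of a type and less RNA per cell cannot be told apart, and the part of these cells in the values below was not tested.

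Stretches of sequence at which the reading frame ended in non-productive reads of several members are shown first, because they are what sets these transcripts apart from the coding ones. Each runs from the first base of the poison exon or retained intron to the stop codon, 5′ to 3′ on the strand of the gene, from GENCODE M21 transcripts on mm10. Capitals mark the stop codon in the frame set by the annotated start.
Srsf5 intron chr12:80947866-80947874 (+): gtttgtTGA
Srsf7 intron chr17:80205174-80205261 (-): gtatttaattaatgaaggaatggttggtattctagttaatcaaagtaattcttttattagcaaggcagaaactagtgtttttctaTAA
Ddx5 intron chr11:106783954-106783958 (-): gtTAG
Srsf3 exon chr17:29039454-29039487 (+): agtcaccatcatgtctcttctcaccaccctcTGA
Srsf4 exon chr4:131884276-131884390 (+): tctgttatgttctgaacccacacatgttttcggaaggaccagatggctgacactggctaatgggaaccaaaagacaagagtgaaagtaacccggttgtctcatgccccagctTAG
Srsf6 exon chr2:162932815-162932966 (+): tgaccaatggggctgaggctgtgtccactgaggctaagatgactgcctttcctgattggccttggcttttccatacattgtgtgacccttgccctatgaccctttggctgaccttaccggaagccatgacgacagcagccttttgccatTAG
Srsf7 exon chr17:80205054-80205081 (-): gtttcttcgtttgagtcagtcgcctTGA
Srsf9 exon chr5:115328347-115328428 (+): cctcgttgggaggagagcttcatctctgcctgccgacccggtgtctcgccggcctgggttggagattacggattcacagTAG
Srsf11 exon chr3:158023310-158023359 (-): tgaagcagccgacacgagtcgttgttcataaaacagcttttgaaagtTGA
Hnrnpl exon chr7:28817335-28817393 (+): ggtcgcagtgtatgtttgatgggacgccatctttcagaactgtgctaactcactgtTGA

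Together the 39 genes held 2403 reads in replicate 1 and 1241 in replicate 2, or 2195 and 1982 CPM, a mean of 2088 ± 151 CPM (SD, n = 2) and 0.220% and 0.198% of all reads. The median member stood at 32.6 CPM against 6.73 CPM over all annotated genes with a read. A long read was taken to stand for 1 RNA molecule, so these levels were not divided by transcript length. No molecular identifiers are described, so copies of 1 molecule could not be set apart. The hnRNPs made up most of the sum, at 1313 and 1386 CPM, and the SR proteins held 404 and 302 CPM. Rsrp1 alone held 195 and 68.7 CPM, Ddx5 and Ddx17 together 207 and 168 CPM, Luc7l2 and Luc7l3 45.7 and 36.7 CPM, and Clk1 and Clk4 31.1 and 20.8 CPM. The hnRNP sum was the higher in replicate 2 and the other 5 sums were higher in replicate 1.

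**Figure D1:**
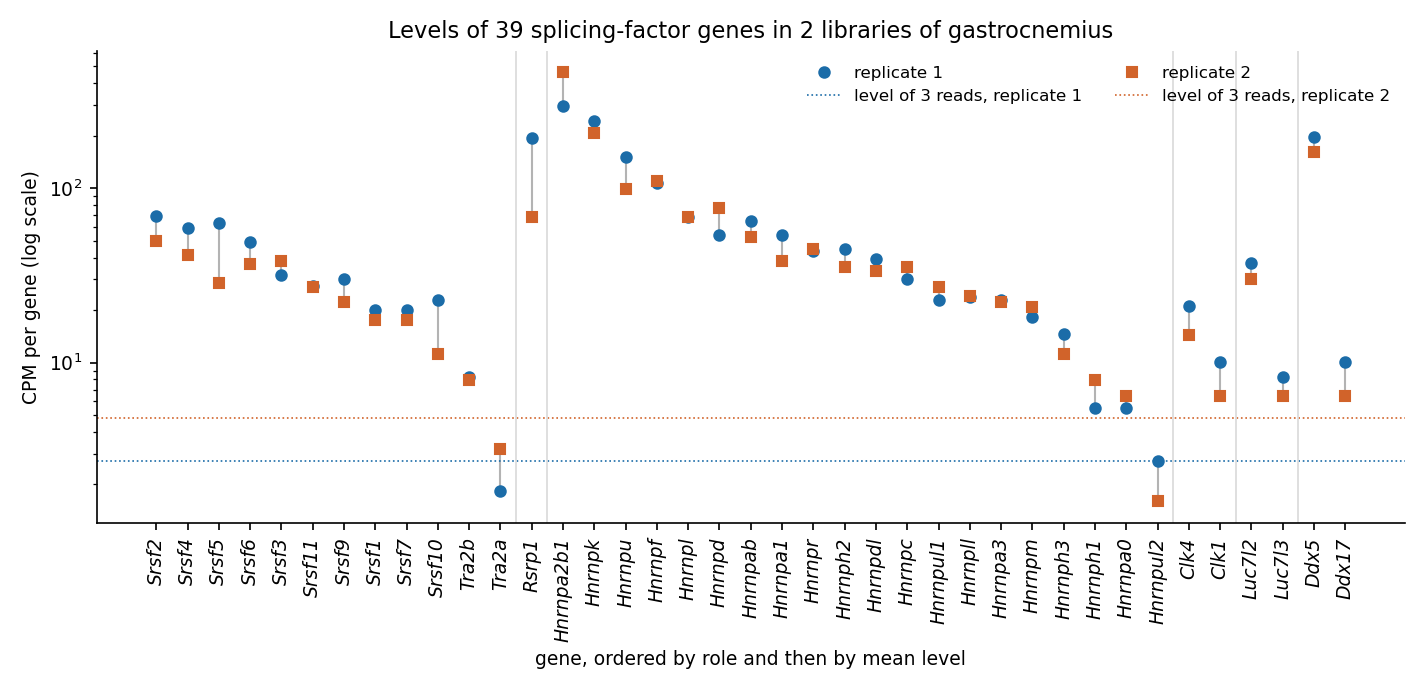
Level of each of the 39 genes in CPM (log scale) in replicate 1 (circles) and replicate 2 (squares), grouped by role and ordered by mean level, with dotted lines at the level of 3 reads in each library. Hnrnpa2b1 stands highest, at 296 and 463 CPM, and Tra2a and Hnrnpul2 lie at or under the level of 3 reads.

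Of the genes with at least 10 reads over both libraries, 37 of the 39 could be compared between the libraries by Fisher's exact test of a gene's reads against the library total, adjusted by Benjamini-Hochberg over 7955 genes. Of these, 4 differed at an adjusted p under 0.05, where 13.5% of all genes tested did. Higher in replicate 1 were 3 members, against 6.89% of all genes, and 1 was higher in replicate 2, against 6.56%. The members' share of 10.8% was close to that of all genes. The median log2 ratio of replicate 1 over replicate 2 was 0.22 over members and 0.24 over all genes tested, and TMM scaling moved every log2 ratio down by 0.25.

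Rsrp1, which encodes a small protein rich in arginine and serine, had 213 and 43 reads, a log2 ratio of 1.49 (adjusted p = 2.94e-10, Fisher's exact test). Hnrnpa2b1 had 324 and 290 reads, a log2 ratio of -0.65 toward replicate 2 (adjusted p = 1.22e-06, Fisher's exact test). Srsf5 had 69 and 18 reads, a log2 ratio of 1.10 (adjusted p = 0.0223, Fisher's exact test), and Hnrnpu had 165 and 62 reads, a log2 ratio of 0.60 (adjusted p = 0.0379, Fisher's exact test). With TMM scaling, Rsrp1 and Hnrnpa2b1 still differed, while Srsf5 had an adjusted p of 0.136 and Hnrnpu one of 0.388 by the same exact test. The models of Hnrnpu averaged 7057 bases and those of Hnrnpa2b1 977 bases, beside library averages of 2211 and 1768 bases, and the part of transcript length in these differences was not tested. Hnrnpa2b1 turned to the other side, a log2 ratio of 0.32 with an adjusted p of 0.447 by the exact test, when annotated models alone were counted.

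Among the 12 SR proteins, Srsf2 stood highest, with 69.4 and 49.5 CPM (59.5 ± 14.1, SD, n = 2). Srsf4 followed with 59.4 and 41.5 CPM, Srsf5 with 63.0 and 28.7 CPM, Srsf6 with 49.3 and 36.7 CPM, and Srsf3 with 32.0 and 38.3 CPM. The libraries' ranges overlap between each of these genes and the next in order. Srsf11, Srsf9, Srsf1, Srsf7 and Srsf10 had means between 17.0 and 27.3 CPM. Tra2b had 9 and 5 reads and Tra2a 2 and 2 reads, so the Tra2 genes, whose proteins bind exons alongside the SR proteins, were the least read of the group.

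Srsf4 gave the clearest cassette of poison exons. A run of 3 exons of 207, 184 and 174 bases lies in its first intron, the first at chr4:131884276-131884482, and all 3 occur in annotated nonsense-mediated decay transcripts, although every read that held them was on a model outside the annotation. The 207-base exon was in 9 of 64 reads across it in replicate 1 and in 2 of 25 in replicate 2 (11.0% ± 4.29, SD, n = 2), and the stop shown above lies at its base 113. Of the reads that could be scored for all 3 exons, 8 of 63 in replicate 1 and 1 of 24 in replicate 2 held them all, 54 and 23 held none, and a single read in replicate 1 held only the last 2. The exons were therefore kept or skipped together in all of these reads but 1. Counting every poison exon, the non-productive share of Srsf4 was 10 of 65 reads (15.4%, exact 95% interval 7.63% to 26.5%) and 2 of 26 (7.69%, 0.946% to 25.1%).

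Srsf6 and Srsf9 also held poison exons. In Srsf6 the 268-base exon chr2:162932815-162933082 was in 4 of 52 and 4 of 22 reads across it (12.9% ± 7.42, SD, n = 2), and its frame stopped at base 150 in all 8 of these reads. In Srsf9 the 358-base exon chr5:115328347-115328704 was in 9 of 31 and 2 of 12 reads (22.8% ± 8.74, SD, n = 2). A second, 90-base exon of Srsf9 was found in 5 of 32 reads in replicate 1 and in 0 of 12 in replicate 2, and in the 4 reads scored for both exons it came together with the first. This second exon belongs to an annotated decay transcript and contains the whole of a 79-base exon of a coding transcript. Srsf3, whose 456-base poison exon is known for the control of Srsf3 by its own protein, kept that exon in 2 of 34 reads in replicate 1 and 0 of 23 in replicate 2. With 1 further read that retained an intron, its non-productive share was 8.57% (3 of 35 reads) and 0% (0 of 24, which allows up to 12.5%).

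Srsf5 and Srsf7 carried both kinds. The Srsf5 intron chr12:80947866-80949094, of 1229 bases, was kept in 20 of 60 and 3 of 15 reads (26.7% ± 9.43, SD, n = 2), and the frame stopped 7 bases into it in all 23 of these reads. The most read model of this kind, with 12 and 3 reads, is not among the annotated transcripts. Srsf7 kept its 874-base intron chr17:80204388-80205261 in 4 of 19 and 1 of 11 reads, and had a 107-base poison exon inside that intron in 2 and 0 reads. Its non-productive share was 7 of 22 reads and 1 of 11. Srsf11 held its 117-base poison exon chr3:158023243-158023359 in 2 of 26 and 2 of 15 reads, with a share over all events of 4 of 30 and 3 of 17 reads. Srsf10 had 3 of 22 and 1 of 7 non-productive reads, among them a 360-base poison exon in 2 of 18 and 1 of 7 reads. A stop could be found in all 3 reads with this exon, and it lay inside the exon in 0 of them. Poison exons of 534 bases in Srsf5 and of 64 bases in Srsf11 were each in 1 read of each library.

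Srsf1, Srsf2 and the Tra2 genes differed from these. By the rule used, all 22 and all 11 reads of Srsf1 were non-productive, mostly because a 378-base stretch near its 3′ end, spliced out in another annotated coding transcript, was kept in 20 of 22 and 11 of 11 reads. That stretch lies inside an exon of the coding transcript Srsf1-205, which led the gene with 10 and 4 reads, and 15 of the 17 reads with a stop that could be found stopped at base 6 of it. Without introns that lie inside a coding exon, a choice made after the data were seen, the Srsf1 share was 2 of 22 reads and 0 of 11. A 196-base intron of Srsf1, which also lies inside an exon of a coding transcript, was kept in 2 of 16 and 1 of 6 reads. Srsf2 had 0 of 72 and 0 of 27 non-productive reads, which allows up to 4.17% and 11.1%. In 9 of 70 and 3 of 26 Srsf2 reads an exon junction lay more than 50 bases after the stop. No read of Tra2a or Tra2b was non-productive, of 2 and 2 and of 7 and 5 reads, a depth at which a poison exon would often be missed.

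The most read model of Rsrp1 was one that keeps an intron, and here, unlike in Srsf1, the intron lies inside no exon of a coding transcript. An intron of 1302 bases was kept in 190 of 198 reads across it in replicate 1 and in 32 of 39 in replicate 2 (89.0% ± 9.83, SD, n = 2). The annotated retained-intron transcript Rsrp1-204 had 173 and 29 reads, while the coding transcript Rsrp1-201 had 7 and 7. Of the reads spliced across the middle of this stretch, 4 of 16 and 1 of 9 took a 45-base exon from it, and in the 4 with a stop that could be found the frame stopped at its base 7. A 125-base exon of the same stretch was in 1 of 9 and 1 of 9 reads. The non-productive share was 92.9% (exact 95% interval 88.5% to 95.9%) and 81.0% (65.9% to 91.4%), and the libraries differed at an unadjusted p of 0.0337 by Fisher's exact test, with an adjusted p of 1 over 2475 genes. The higher level of Rsrp1 in replicate 1 lay in the retained-intron model, since the coding model had the same 7 reads from the deeper and the shallower library.

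**Figure D2:**
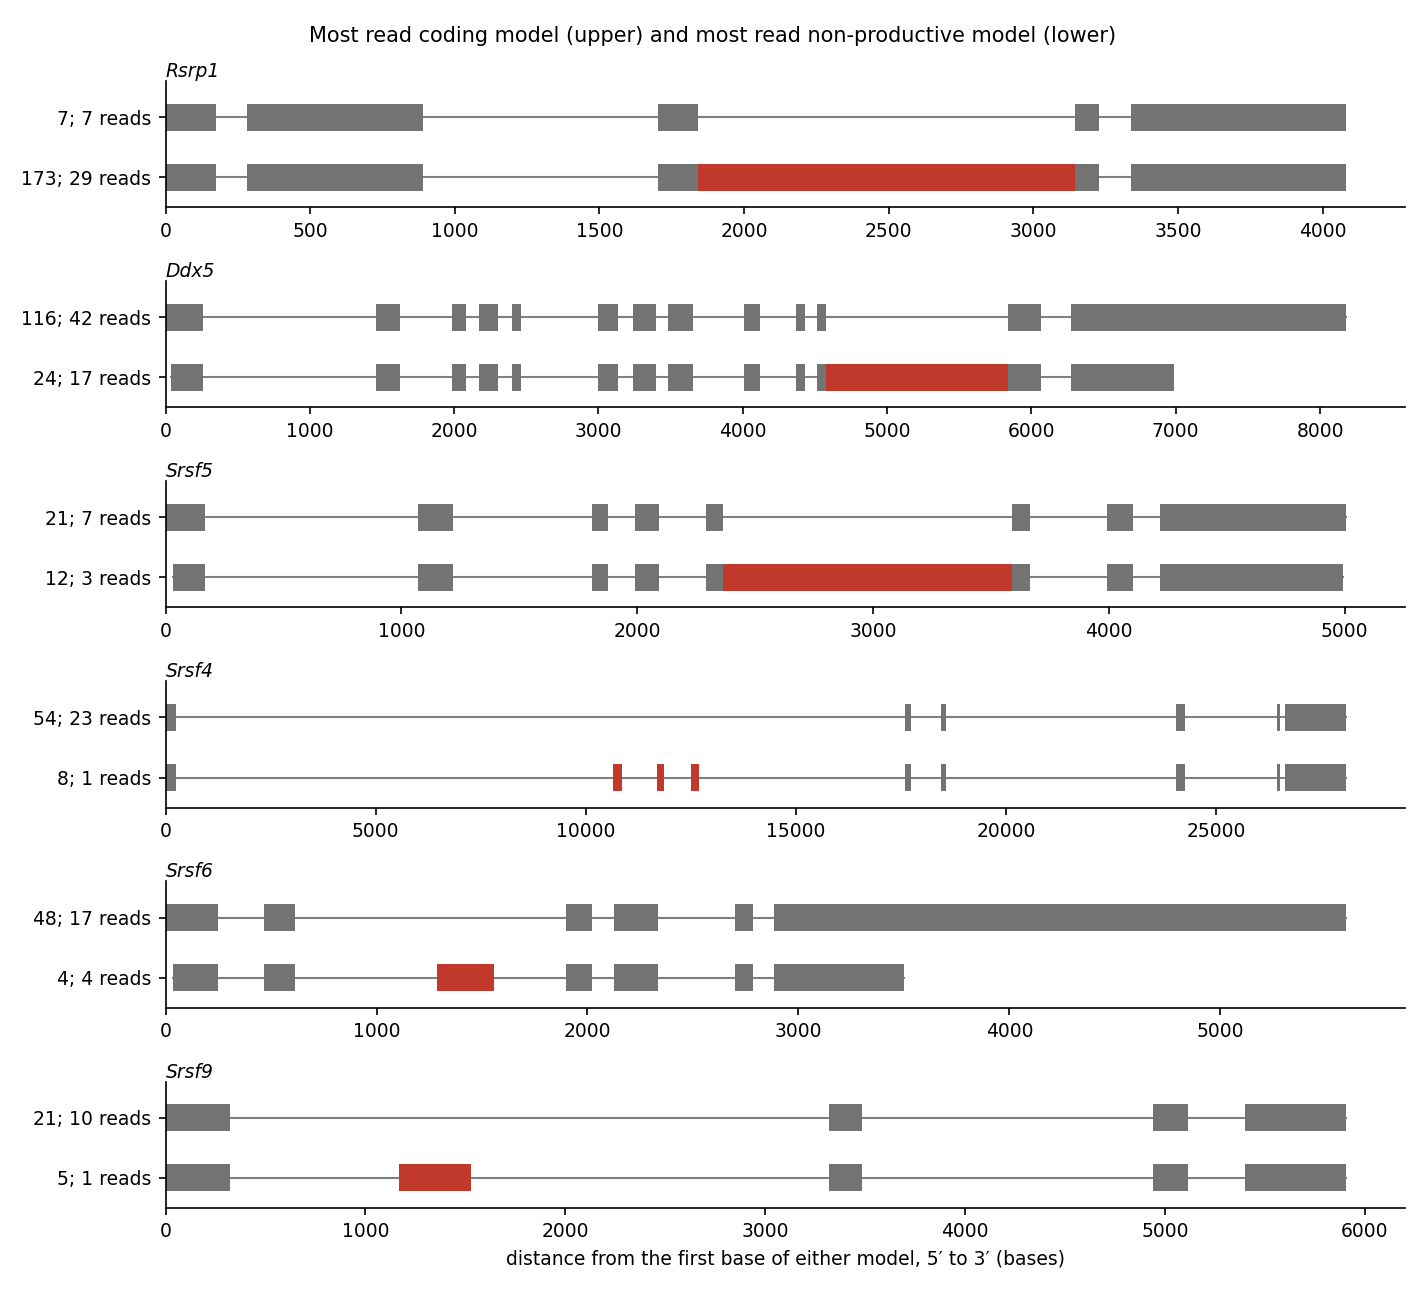
Exons (boxes) and introns (lines) of the most read coding model and the most read non-productive model of 6 genes, drawn 5′ to 3′ by distance in bases from the first base of either model, with reads in replicate 1 and replicate 2 at the left. Red marks the retained intron or the poison exons; in Rsrp1 the model with the retained intron has 173 and 29 reads against 7 and 7 for the coding model, and in Srsf4 the 3 poison exons appear together.

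The hnRNPs spanned the whole range of levels. Hnrnpa2b1, a protein of the core hnRNP particle, had 296 and 463 CPM, and Hnrnpk, which binds C-rich RNA, had 243 and 208 CPM. Hnrnpu, a large scaffold protein of the nucleus, had 151 and 99.0 CPM, and Hnrnpf, which binds G-rich RNA, 108 and 110 CPM. Hnrnpl, Hnrnpd, Hnrnpab, Hnrnpa1, Hnrnpr, Hnrnph2, Hnrnpdl and Hnrnpc had means from 32.6 to 68.6 CPM. Hnrnpul1, Hnrnpll, Hnrnpa3, Hnrnpm and Hnrnph3 had lower means, down to 12.9 CPM for Hnrnph3. Hnrnph1 with 6 and 5 reads, Hnrnpa0 with 6 and 4, and Hnrnpul2 with 3 and 1 closed the list.

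Several hnRNPs had no non-productive read. Hnrnpa2b1 had 0 of 308 and 0 of 265, though many of these reads were on partial models that end before the upstream exons, and of the 150 and 63 reads in which a stop could be looked for, 13 and 5 had an early stop by the 50-base rule. Hnrnpf had 0 of 118 and 0 of 69, and Hnrnpab had 0 of 67 and 0 of 27. Hnrnph2 (0 of 49 and 0 of 22), Hnrnpc (0 of 33 and 0 of 20) and Hnrnpul1 (0 of 24 and 0 of 16) were the same, as were Hnrnpa0 and Hnrnpul2 at 1 to 6 reads. For Hnrnpf, Hnrnph2 and Hnrnpa0 the count of 0 was fixed in advance by the rule. These genes have no intron between coding exons and no annotated nonsense-mediated decay transcript. Hnrnpk had 2 of 260 and 1 of 109 such reads, Hnrnpu 6 of 163 and 1 of 61, and Hnrnpd 1 of 59 and 0 of 48. Hnrnpa3, Hnrnph1, Hnrnph3 and Hnrnpll had 0 or 1 such read in each library.

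Hnrnpdl, Hnrnpa1, Hnrnpl and Hnrnpr had more. In Hnrnpdl, known to regulate its own RNA by splicing after the coding region, a 105-base exon of an annotated nonsense-mediated decay transcript was in 7 of 26 and 4 of 15 reads across it (26.8% ± 0.181, SD, n = 2), and the share over all events was 9 of 41 and 5 of 20 reads. Introns of 285 and 108 bases were each kept in 1 read of each library. Hnrnpa1 had 8 of 59 and 4 of 23, among them an annotated decay transcript with 4 and 3 reads. In Hnrnpl the 70-base poison exon chr7:28817335-28817404 was in 1 of 59 and 3 of 30 reads, each stopping at base 57. The full Hnrnpl share of 9 of 75 and 5 of 42 reads became 1 of 75 and 3 of 42 without introns that lie inside a coding exon, since 8 and 2 reads kept a 111-base stretch of that kind. Hnrnpr kept its 121-base intron chr4:136339298-136339418 in 4 of 47 and 1 of 28 reads. Hnrnpm, at 5 of 20 and 4 of 13 reads, had 0 and 0 once a 117-base stretch inside a coding exon was left out. Only 8 and 7 Hnrnpm reads could be scored for that stretch, and 5 and 4 of them kept it.

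Ddx5, a helicase that unwinds RNA in splicing and microRNA processing, had 197 and 161 CPM and kept 1 intron at the same share in both libraries. The intron chr11:106782694-106783958, of 1265 bases, was in 55 of 194 and 19 of 70 reads (27.7% ± 0.854, SD, n = 2). Its first bases are gttagt, and the frame stopped at base 3 of it in 62 of the 69 reads with a stop that could be found. The annotated decay transcript Ddx5-208, which holds this intron, had 24 and 17 reads beside 116 and 42 for the coding Ddx5-201. In replicate 1, 14 of 199 reads also kept a 212-base intron and 8 of 196 an 82-base intron, and all of those that could be scored for both introns kept the 1265-base intron as well. No read of the 70 in replicate 2 kept either. The last 66 bases of the 1265-base intron are also 66 of the 67 bases annotated as the microRNA gene Mir3064, so that the intron ends within the hairpin. A second annotated microRNA gene, Gm25994, of 101 bases, lies wholly inside the same intron. The mature products of Mir3064 are given because their annotated positions lie in the sequence that these reads keep. Small RNAs were not measured, so whether they are made from such RNAs was not tested. They come from RefSeq on GRCm38.p6, with the seed (bases 2 to 8) in capitals.
miR-3064-5p chr11:106782736-106782757 (-): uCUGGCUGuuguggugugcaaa
miR-3064-3p chr11:106782695-106782716 (-): uGCCACACugcaacaccuuaca

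Ddx17, the close relative of Ddx5, had 11 and 4 reads, of which 6 and 3 were in the Genomic class, and 0 of the 5 and 1 spliced reads were non-productive. The Genomic class also held 14 of 216 and 31 of 101 Ddx5 reads. Clk1 and Clk4, kinases that phosphorylate SR proteins, were read rarely, with 11 and 4 and with 23 and 9 reads. Clk1 kept introns of 387 and 871 bases in 5 of 8 reads scored for both in replicate 1 and in 1 of 2 in replicate 2, and every one of these reads kept both or neither. The retained-intron transcript Clk1-212 had 4 and 1 reads and the coding Clk1-201 had 3 and 1. Clk4 had 8 of 23 and 3 of 8 non-productive reads, and 16 of 20 and 3 of 5 reads with an early stop by the 50-base rule. The former included a 78-base poison exon in 5 of 18 and 0 of 3 and a 59-base one in 2 and 1 reads. A stop could be found in all reads with these exons, and it lay inside the exon in 0 of them. Clk4 introns of 391 bases (1 of 12 and 2 of 5 reads) and 191 bases (1 of 20 and 2 of 5) were also kept. Its 91-base coding exon, which is known to be skipped in Clk genes, was in 11 of 19 and 3 of 3 reads. By the 50-base rule the counts also differed by over 1.5 times in mean share for Luc7l2 (9 of 37 and 2 of 13 reads), Hnrnpul1 (3 of 15 and 0 of 11), Hnrnpl (2 of 59 and 3 of 27), Hnrnpr (1 of 43 and 0 of 25), Hnrnpd (1 of 53 and 1 of 31), Hnrnpa3 (1 of 18 and 0 of 9) and Srsf1 (2 of 13 and 1 of 5). The same held for Hnrnpm (6 of 6 and 4 of 4), Hnrnph3 (0 of 15 and 0 of 4) and Luc7l3 (0 of 6 and 0 of 2). Hnrnph1 had 0 of 4 in replicate 1 and no scored read in replicate 2. No Hnrnpm read held its annotated 8-base exon, and the part of this in its early stops was not tested. Luc7l2, which helps U1 snRNP to choose 5′ splice sites, had 5 of 37 and 1 of 14 non-productive reads, with a 71-base exon of an annotated decay transcript in 2 of 30 and 1 of 10, and Luc7l3 2 of 9 and 0 of 4, or 0 and 0 without introns inside a coding exon.

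**Figure D3:**
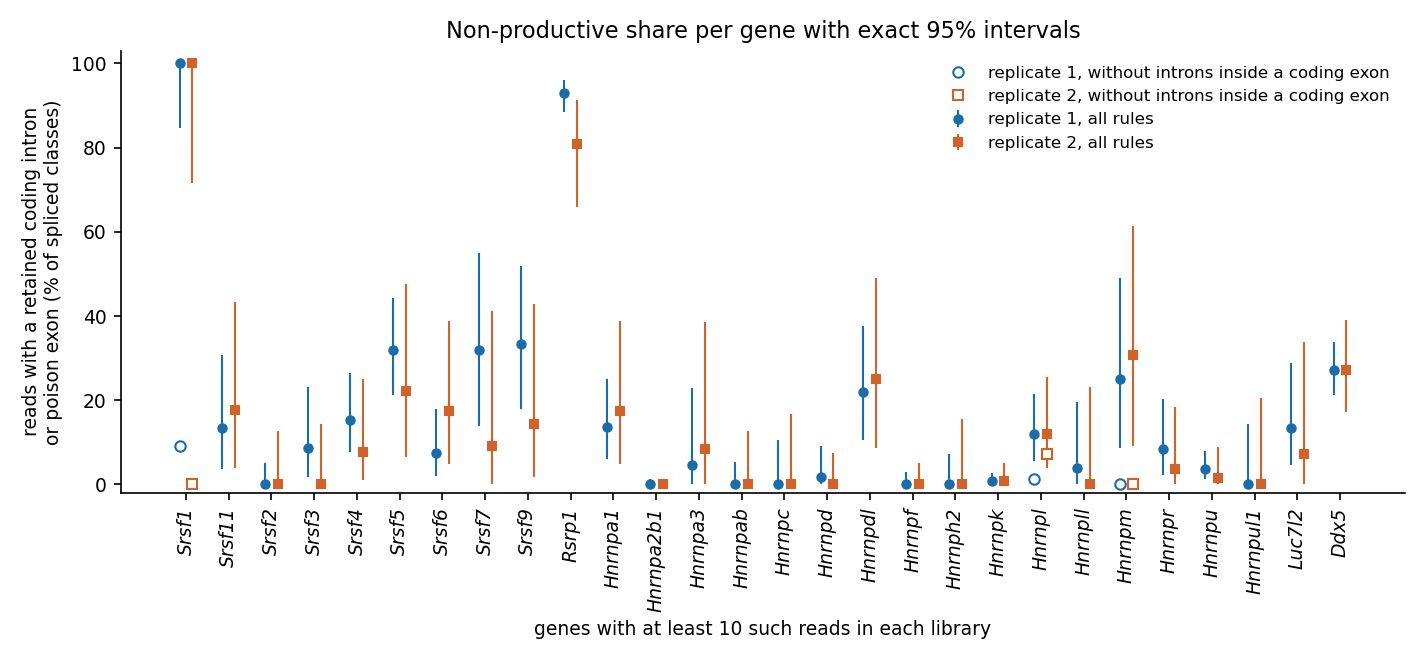
Non-productive share in percent for each gene with at least 10 reads of spliced classes in each library, in replicate 1 (circles) and replicate 2 (squares) with exact 95% intervals that cover counting error only; open symbols leave out introns that lie inside a coding exon. Rsrp1 lies at 92.9% and 81.0% and Ddx5 at 27.2% and 27.1%, while Srsf1, Hnrnpl and Hnrnpm drop when such introns are left out.

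Beside all coding genes, the members lay more often at the upper end of this share. Of the genes with at least 20 reads of spliced classes in each library, 18 were members and 2475 were coding genes in all. At least 1 non-productive read was found for 12 of the 18 members (66.7%) and for 1441 of the 2475 genes (58.2%). A mean share over 10% was found for 7 members (38.9%), namely Rsrp1, Ddx5, Hnrnpdl, Hnrnpa1, Srsf6, Hnrnpl and Srsf4, and for 172 genes (6.95%). Without introns inside a coding exon these were 6 members (33.3%) and 120 genes (4.85%). With models of at least 2 reads alone they were 3 of 15 members (20.0%) and 5.34% of genes, and with annotated models alone 3 of 13 (23.1%) and 3.15%. The median share was 3.47% over the 18 members and 0.427% over all genes, and per library it was 5.54% and 1.28% for the members and 0.252% and 0% for all genes. The members were chosen by function and this comparison is a description with no test. Between the libraries, 0 of the 18 shares differed at an adjusted p under 0.05 by Fisher's exact test, 1 (Rsrp1) did so unadjusted, and of all genes 0.566% did after adjustment (0.404% higher in replicate 1 and 0.162% in replicate 2) and 70 of 2475 before it.

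**Figure D4:**
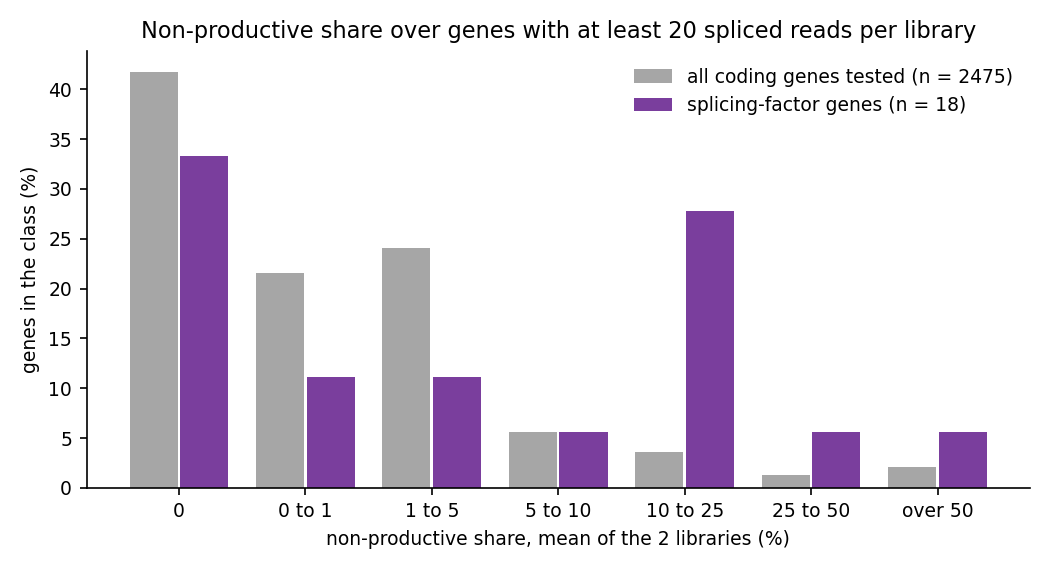
Percent of genes in each class of non-productive share (mean of the 2 libraries), for all 2475 coding genes with at least 20 spliced reads in each library (grey) and the 18 splicing-factor genes among them (purple). In the class from 10% to 25% lie 5 of the 18 members (27.8%) and 3.60% of all genes, and 6 members and 41.8% of all genes have a share of 0. Among those members are Hnrnpf and Hnrnph2, in which the rule could find no such read. Genes of that kind were not set apart among all genes either.

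The annotation lists such transcripts for more of these genes than of others. A nonsense-mediated decay transcript is annotated for 26 of the 39 members (66.7%) and for 27.8% of 12681 coding genes with a read, and a retained-intron transcript for 30 (76.9%) and 57.5%. When only annotated models were counted, the median share was 0% for 13 members and for 1997 genes, and at least 1 non-productive read was found for 6 of the 13 (46.2%) and for 14.5% of the genes. On annotated models the mean share was 88.4% in Rsrp1, 28.2% in Hnrnpdl, 23.0% in Ddx5 and 13.4% in Srsf6, while it was 8% in Srsf9, 2.50% in Srsf5 and 0% in Srsf4.

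Exons that belong to coding transcripts were scored in the same way. Hnrnpa2b1 included its 36-base exon, which distinguishes the B1 protein from A2, in 10 of 150 and 6 of 63 reads (8.10% ± 2.02, SD, n = 2), and its 120-base exon in 131 of 175 and 61 of 86 (72.9% ± 2.78). Hnrnpa1 included its 159-base exon, which gives the longer A1-B protein, in 9 of 54 and 4 of 22 reads (17.4% ± 1.07). Hnrnpab included a 141-base exon in 14 of 65 and 8 of 24 reads. Hnrnpr has an exon with forms of 169 and 166 bases, and either form was in 24 of 43 and 10 of 23 reads, with the 169-base form in 12 and 4 and the 166-base form in 12 and 6. Outside the coding region, Hnrnph2 included a 45-base exon in 25 of 46 and 11 of 20 reads and Hnrnpc a 26-base exon in 13 of 26 and 5 of 12. Luc7l2 included a 30-base exon in 18 of 36 and 5 of 10 reads and an 84-base exon in 7 of 34 and 2 of 10. Srsf7 included a 36-base exon in 21 of 22 and 8 of 11.

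Hnrnpd makes 4 proteins from the presence or absence of 2 exons, and long reads show both exons on the same molecule. Its 57-base exon was in 37 of 53 and 21 of 30 reads (69.9% ± 0.133, SD, n = 2) and its 147-base exon in 35 of 56 and 21 of 37 (59.6% ± 4.06). Of the reads scored for both, 25 of 53 and 11 of 30 held both exons, 12 and 10 held only the 57-base exon, 9 and 7 held only the 147-base exon, and 7 and 2 held neither. The form with both exons was the most read in each library, and all 4 forms were seen in both. In Hnrnpa2b1 the form with the 120-base exon and without the 36-base exon led, with 100 of 150 and 36 of 63 reads, and 40 and 21 lacked both.

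**Figure D5:**
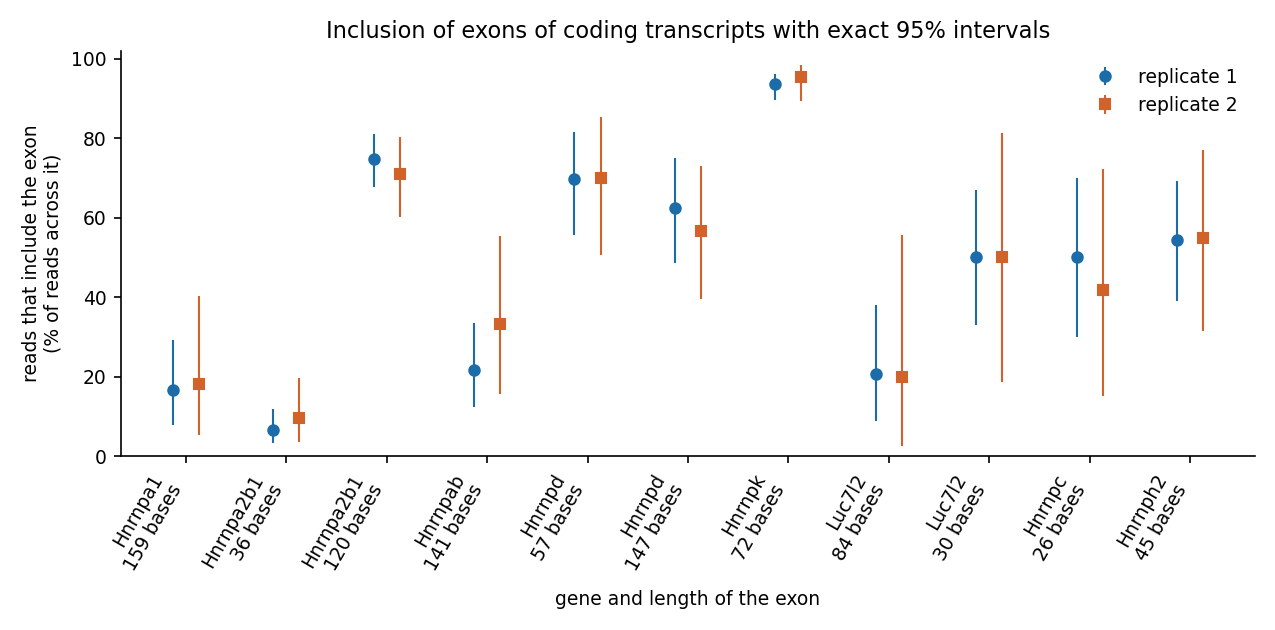
Share of reads that include an exon of a coding transcript, in percent of the reads across it, in replicate 1 (circles) and replicate 2 (squares) with exact 95% intervals. The intervals of the libraries overlap for each of the 11 exons drawn, from 6.67% and 9.52% for the 36-base exon of Hnrnpa2b1 to 93.5% and 95.3% for the 72-base exon of Hnrnpk.

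Hnrnpk and Hnrnpm had 0 reads on annotated models in both libraries. Of 266 and 130 Hnrnpk reads, 242 and 66 were in the deposited class NIC and 3 and 39 in the class NNC, both used for spliced models outside the annotation, and the leading model had 132 and 42 reads. All 8 annotated coding transcripts that span the place carry a 16-base exon at chr13:58393853-58393868, but 0 reads held it, while 258 and 109 reads had an intron across its place. In 357 of these reads that intron was chr13:58393775-58394059, which is not annotated and begins 16 bases further into the preceding intron, so that the upstream exon was longer by the length of the missing one. Both stretches are shown because the count of annotated models rests on which of them the reads held.
Hnrnpk annotated exon: ggtggttctggatatg
Hnrnpk added bases: gttgagtatcaataat
They have the same letter at 8 of 16 positions. By the 50-base rule 245 of 245 and 106 of 106 Hnrnpk reads would have an early stop, because the frame was read through the added bases. Which of the 2 stretches the RNA held was not tested, since reads were not analysed here, so no early stop is reported for Hnrnpk. In Hnrnpm an 8-base exon was likewise in 0 reads and spanned by an intron in 7 and 8.

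Partial and misplaced reads set limits for some members. In Hnrnpa2b1 the most read model was a partial one of 2 exons at the 3′ end, with 101 and 137 reads, or 31.2% and 47.2% of the gene, while the annotated coding model Hnrnpa2b1-204 had 82 and 34. The higher level of Hnrnpa2b1 in replicate 2 went together with this model. For Hnrnpa3, 21 annotated pseudogene copies match its coding sequence at 90% identity or more, and 3 of them held 23 and 11 reads beside 25 and 14 on the gene itself, so its level is uncertain. A copy of Hnrnpf held 1 and 2 reads, and the copies found for other members held 0. Some Hnrnpm reads ran past the annotated upstream end of the gene, chr17:33686860. An exon beyond it, chr17:33709745-33709972, was in 7 of 7 reads across it in replicate 1 and 0 of 1 in replicate 2. The gene March2 overlaps Hnrnpm on the same strand. Which gene these reads came from was not tested, so the Hnrnpm level is uncertain too.

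Other genes of the same pathways were read from fixed lists. Their counts of differing genes use library totals without TMM scaling and stand beside 13.5% of all genes tested. Of 21 further SR-related genes, 20 were detected, led by Rbm39 (78.4 ± 27.3 CPM, SD, n = 2) and Zranb2 (58.5 and 41.5 CPM), and 0 of 17 tested differed between the libraries by the adjusted exact test, with 1 at an unadjusted p under 0.05. Of 13 splicing kinases and phosphatases, all were detected, led by the muscle-specific SR protein kinase Srpk3 (184 ± 13.9 CPM) and Dyrk1b (112 ± 0.424), both above Clk4 at 17.7 ± 4.70 and Clk1 at 8.22 ± 2.59. Only Clk3 of the 10 tested differed, with 69 and 20 reads. Of 24 other RNA-binding proteins of the hnRNP type, Ybx1 (383 ± 2.12 CPM) and Pcbp1 (148 ± 0.996) led, and 1 of 19 tested, Nono, differed, with 59 and 16 reads.

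All 41 core spliceosome genes were detected, led by Snrpb (173 ± 9.19 CPM, SD, n = 2) and Sf3b2 (120 ± 3.01), and their summed level was 1251 and 1383 CPM. Of 40 tested, 3 differed, the Sm protein genes Snrpd3 (20 and 29 reads), Snrpg (22 and 28) and Snrpe (37 and 47), each higher in CPM in replicate 2. Of 15 genes of nonsense-mediated decay and the exon junction complex, all were detected, led by Eif4a3 (75.0 ± 8.94 CPM) and Rbm8a (49.3 ± 2.54), and 0 of 7 tested differed by the adjusted exact test, with 1 at an unadjusted p under 0.05. Of 12 splicing regulators known for their role in muscle, 11 were detected, led by Rbm38 (239 ± 78.2 CPM) and Rbm24 (181 ± 47.9), and their sum of 961 ± 138 CPM compares with 2088 ± 151 CPM for the 39 members. Of 11 tested, 4 differed between the libraries, 3 of them higher in replicate 1, where 13.5% of all genes tested differed.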

How the data were processed

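Long-read RNA sequencing of gastrocnemius was analysed in 2 libraries. Each library came as counts of reads on transcript models, deposited by the authors with an annotation of those models, on mm10 with GENCODE M21, per the text deposited with each library. Attribute names are those of TALON. Which aligner and read correction were used was not given in the sources used here. Counts were used as deposited, spike-in RNAs (47054 and 16073 reads) were set aside, and CPM were counts per 1000000 remaining reads, summed over all models of a gene. How the model was assigned limits every count, since an annotated model carries the annotated length, whatever the length of the read, and alleles of the CAST parent were counted on the C57BL/6 genome. Whether the alignment used strand is not stated, and genes on the opposite strand overlap 16 of the 39 members.

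Introns, exons and stops were read from the exons of each model against GENCODE M21, with sequence from its transcripts. No genome sequence was used, so bases outside annotated transcripts were left undetermined. The sequence of the Rsrp1 intron is not reported here. A stop was called early when it lay more than 50 bases before the last exon junction. Pseudogene copies were found with minimap2 2.31-r1302 at 90% identity over 50% of the coding sequence.

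With 1 group, no comparison between conditions was possible. Libraries were compared by two-sided Fisher's exact tests adjusted by Benjamini-Hochberg over the genes holding 10 reads or more, or at least 20 spliced reads per library for shares. The tests treat reads as independent. Intervals are exact Clopper-Pearson 95% and, like limits from a count of 0 (3 reads), cover counting error only, since no molecular identifiers are described. The tests were checked on simulated data. Scaling factors came from edgeR 4.0.16 (R 4.3.3), the rest from Python 3.11.15, pandas 2.3.3, scipy 1.17.1 and statsmodels 0.14.6.

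The members, the lists and the rules were chosen with earlier results of these data known. Named are all members, their poison exons and retained introns seen in both libraries or in at least 5 reads, and from each list the 2 genes of highest mean CPM and any that differed where at most 3 did. Exons of coding transcripts were chosen for the text after their values were seen. Scaling, model classes, read minimums, flanking bases and single replicates were varied.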

Additional observations from a re-analysis of the deposited data

How the results depend on the processing

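The summed level of the members stayed within its replicate spread under TMM and RLE scaling and without Genomic models (2088 CPM as reported), and without each replicate it ranged from 1982 to 2195 CPM. With annotated models alone it was 1618 CPM, on the scale of reads on such models. The number of members that differed between the libraries was 4, and it was 2 with TMM-scaled totals, 2 with annotated models alone, 3 with no read minimum and 6 without Genomic models, which added Ddx5 and Hnrnpk. Hnrnpa2b1 reversed with annotated models alone (log2 ratio 0.32), where its partial models are left out. The median non-productive share of the members was 3.47%, ranged from 1.28% to 5.54% without each replicate, was 7.25% over 15 members by the 50-base rule alone and 0% over 13 members with annotated models alone. It was 3.45% without introns inside a coding exon, an alternative chosen after seeing the data, and from 1.88% to 5.12% under the other 5 alternatives. The 15 members of the 50-base rule include Hnrnpk, at 245 of 245 and 106 of 106 reads. Those early stops rest on the added bases described above, so the 7.25% depends in part on a value that is in doubt. With annotated models alone the Srsf5 share was 2.50% against 27.1%, the Srsf9 share 8% against 23.8% and the Srsf4 share 0% against 11.5%. Members with a mean share over 10% numbered 7 of 18, and 3 of 15 with models of at least 2 reads and 3 of 13 with annotated models alone. The number of genes whose share differed between the libraries was 14 and became 31 with Genomic models, and no member was among them under any of the 4 alternatives run. The other alternatives kept these counts within 1.5 times.

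No paired analysis was possible because the series has 1 group. Depth limits the results: 21 of the 39 members had under 20 spliced reads in a library, and the Tra2, Clk and Luc7l3 values rest on few reads. Leaving out a replicate leaves 1 library and no test between libraries.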
